A study of Mus musculus with 16 samples.

Results

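Atm encodes a protein kinase that is activated by breaks in DNA and that phosphorylates proteins of the cell cycle, of DNA repair and of cell death. Loss of the human gene causes ataxia telangiectasia, in which Purkinje and granule cells of the cerebellum are lost. Nicotinamide riboside (NR) is a precursor that cells turn into NAD+, the coenzyme of many oxidation reactions and the substrate of sirtuins and of poly(ADP-ribose) polymerases. The comparison described here is that of Atm-/- mice with wild-type (WT) mice when both genotypes drank NR, and the question is which genotype differences were present under that treatment.

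The 8 arrays compared were chosen by their labels, 4 of the group Atm-/- NR and 4 of the group WT NR, out of 16 arrays in the series. Each array holds RNA from the cerebellum of a single mouse, and all mice came from the line B6;129S4-Atmtm1Bal/J, which carries a targeted germline allele of Atm, with WT littermates as the control genotype. Mice of both groups were labelled male, drank water with NR (3.5 mg/ml, or 12 mM) from the age of 6 weeks, and were 3.5 months old after 2 months of treatment. The other 8 arrays, of the groups Atm-/- veh and WT veh, came from mice of the same line, age and labelled sex that drank only water. They give the same genotype difference without NR, on arrays that are not shared with the comparison under NR.

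Arrays of 1 colour report how brightly labelled RNA lights each probe, and values are given below as log2 signal after quantile normalization. Of 56605 probes, 37253 stood well above background on every array of 1 or more groups, were tested, and covered 16737 named genes. Between 34945 and 37817 probes were well above background on the Atm-/- NR arrays and between 36402 and 40010 on the WT NR arrays. The ranges overlapped, with a difference in means of -2064. The test did not show a difference (exact permutation test, two-sided, p = 0.143, where 4 arrays against 4 cannot go below 0.0286). Purkinje cell markers such as Pcp2 (log2 signal 18.07 in WT NR and 18.13 in Atm-/- NR) and granule cell markers such as Cbln1 (17.50 in both groups) were bright in both groups, so the labelled tissue holds. Eif2s3y, Kdm5d and Uty, genes of the Y chromosome, were each read by their brightest probe. On 3 of the 8 NR arrays (WT NR 1, WT NR 4 and Atm-/- NR 4) none of these probes was well above background. There Xist, which silences an X chromosome in female cells, was bright (6.68 to 7.80, against 2.30 to 2.65 on the other 5). This goes against the label male. The same held for 1 of the 8 veh arrays. Results are therefore also given without these arrays. The WT arrays shared 1 slide and the Atm-/- arrays a different one, so that genotype and slide cannot be told apart in any value below. On each slide the veh arrays lay in 1 row and the NR arrays in the other. Treatment and row therefore cannot be told apart where values with and without NR are set side by side.

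Between Atm-/- NR and WT NR, 20 probes differed (limma, adjusted p under 0.05), of which 4 were higher and 16 lower in Atm-/- NR. This is 0.0537% of the probes tested. In all 20, the 4 values of a genotype lay entirely above or below the 4 of the other, which was the case for 4.0% of all probes. The called differences were large, with a median size of 1.63 on the log2 scale and 16 of 20 above 1, whereas the median size over all probes was 0.11. Selection by adjusted p favours probes that are separated and large, so both are a description of the calls. At an unadjusted p under 0.05, 1941 probes differed, which is 5.21% of those tested. The transcriptomes as wholes were close, since the correlation of an Atm-/- NR array with a WT NR array ran from 0.978 to 0.989 and that between arrays of the same group from 0.980 to 0.990. Of the 20 probes, 12 have a gene name and stand for 11 genes, and 8 carry accessions that matched no gene of the RefSeq table used. Every one of the 11 genes lies on chromosome 9 within 20 Mb of Atm.

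The gene Atm itself was measured by 2 probes. The dimmer probe gave log2 signals of 8.65, 8.53, 8.64 and 8.52 on WT NR arrays 1 to 4 and of 7.88, 7.72, 7.85 and 7.83 on Atm-/- NR arrays 1 to 4. The groups did not overlap, and the signal was 1.70-fold lower in Atm-/- NR (log2 difference -0.76 ± 0.08, SE, n = 4 arrays per group, adjusted p = 0.00135). The brighter probe gave 9.02, 8.96, 8.88 and 8.98 in WT NR and 8.79, 9.23, 8.73 and 8.61 in Atm-/- NR, so that the groups overlapped through array Atm-/- NR 2, and it was not called (-0.12 ± 0.11, adjusted p = 0.9997). Where on the transcript each probe lies is not given in the sources used here. Whether either probe reads the targeted part of the gene is therefore not known. No Atm-/- NR array had lost the signal of either probe: both were well above background on all 8 arrays.

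Tmem25, a single-pass membrane protein of the immunoglobulin superfamily, showed the lowest adjusted p of the named probes. Its log2 signal was 15.05, 14.49, 14.53 and 14.86 in WT NR and 12.40, 12.50, 12.42 and 12.59 in Atm-/- NR. It was therefore among the brighter probes of the array in both groups, and it was 4.77-fold lower in Atm-/- NR with no overlap (-2.25 ± 0.17, adjusted p = 3.28e-05). Its neighbour Ift46, a subunit of the particle that carries proteins along cilia, was measured by 3 probes that did not move alike. The brightest gave 13.59, 13.60, 13.67 and 13.42 in WT NR and 14.40, 14.22, 14.24 and 14.33 in Atm-/- NR, a rise (0.73 ± 0.09, adjusted p = 0.00519). The next probe lay in the same direction without being called (0.76 ± 0.14, adjusted p = 0.10). The dimmest gave 8.5, 8.27, 8.39 and 8.43 in WT NR and 5.96, 5.66, 5.73 and 5.60 in Atm-/- NR, a fall of 6.33-fold (-2.66 ± 0.31, adjusted p = 0.00246). Ift46 thus had called probes in both directions, and no direction is given here for the gene as a whole.

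Ppcdc, which decarboxylates an intermediate in the synthesis of coenzyme A, was the named gene with the largest called rise. It gave 10.82, 10.92, 11.01 and 10.92 in WT NR and 12.01, 12.05, 11.82 and 11.89 in Atm-/- NR. The groups did not overlap, and the signal was 2.03-fold higher in Atm-/- NR (1.02 ± 0.11, adjusted p = 0.00164).

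The promoters of Ift46 and Tmem25, which had the largest called falls among the named probes, and of Ppcdc, which had the largest called rise, are shown because all 3 lie on the same chromosome as Atm. Each is 300 bases, from 250 before to 50 after the start of transcription, taken from RefSeq on build GRCm38.p6 (9 of the 11 genes matched an entry). Tmem25 is on the minus strand (chr9:44799198-44799497), Ift46 on the plus strand (chr9:44772759-44773058) and Ppcdc on the minus strand (chr9:57439687-57439986). Capitals mark each match, on either strand, of 3 motifs. The GC box was searched as GGGCGG. The CCAAT box was searched by the 5 letters of its name. The TATA box was searched as TATAAA.
Tmem25: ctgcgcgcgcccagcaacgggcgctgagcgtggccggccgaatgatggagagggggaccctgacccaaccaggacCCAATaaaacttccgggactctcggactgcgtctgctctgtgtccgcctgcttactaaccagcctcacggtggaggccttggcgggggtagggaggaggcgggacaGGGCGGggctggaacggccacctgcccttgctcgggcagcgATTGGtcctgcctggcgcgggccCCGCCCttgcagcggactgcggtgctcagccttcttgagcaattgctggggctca
Ift46: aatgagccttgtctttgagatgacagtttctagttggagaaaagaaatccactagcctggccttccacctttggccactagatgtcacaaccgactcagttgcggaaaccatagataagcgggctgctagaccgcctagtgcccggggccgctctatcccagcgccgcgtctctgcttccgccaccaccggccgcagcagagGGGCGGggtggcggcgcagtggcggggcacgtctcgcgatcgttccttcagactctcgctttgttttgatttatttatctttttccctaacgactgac
Ppcdc: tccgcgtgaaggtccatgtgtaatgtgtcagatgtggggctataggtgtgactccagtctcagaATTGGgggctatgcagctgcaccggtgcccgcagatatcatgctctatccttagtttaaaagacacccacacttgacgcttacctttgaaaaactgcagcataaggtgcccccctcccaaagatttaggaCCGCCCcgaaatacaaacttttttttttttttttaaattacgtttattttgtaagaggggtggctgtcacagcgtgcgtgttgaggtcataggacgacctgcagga
The Tmem25 window holds 2 matches of the GC box and 2 of the CCAAT box, that of Ppcdc holds 1 of each, and that of Ift46 holds 1 of the GC box and 0 of the CCAAT box. No window of the 3 holds the TATA box. Over all 32851 promoters of the table, 35.7% hold the GC box, 37.4% the CCAAT box and 13.6% the TATA box, so these matches are common ones.

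Pts and Bco2, which lie next to each other on chromosome 9, were both lower in Atm-/- NR. Pts, an enzyme of the synthesis of tetrahydrobiopterin, the cofactor for making dopamine and serotonin, gave 10.49, 10.51, 10.69 and 10.65 in WT NR and 9.53, 9.72, 9.35 and 9.46 in Atm-/- NR (-1.07 ± 0.16, adjusted p = 0.0218). Bco2, a mitochondrial enzyme that cleaves carotenoids, gave 7.27, 7.17, 7.55 and 7.02 in WT NR and 5.66, 5.19, 5.64 and 5.04 in Atm-/- NR (-1.87 ± 0.28, adjusted p = 0.0261). Neither gene's groups overlapped, and Bco2 was well above background on all 4 WT NR arrays but on 2 of the 4 Atm-/- NR arrays. Cryab, a small heat shock protein that is abundant in glia, gave 14.46, 14.26, 14.43 and 15.13 in WT NR and 13.43, 13.40, 13.30 and 13.44 in Atm-/- NR (-1.18 ± 0.19, adjusted p = 0.0495). It was 2.26-fold lower and just passed the threshold. WT NR 4, its brightest array, was also the array with the highest level of the oligodendrocyte markers described below, and their part in the Cryab value was not tested.

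Il10ra, the ligand-binding chain of the receptor for the anti-inflammatory cytokine interleukin-10, gave 9.54, 9.24, 9.58 and 9.37 in WT NR and 7.53, 8.27, 8.06 and 7.29 in Atm-/- NR (-1.64 ± 0.22, adjusted p = 0.0100). A dimmer probe of Il10ra was well above background on 4 WT NR arrays and on 0 Atm-/- NR arrays, and was not called (adjusted p = 0.0925). Nxpe4 gave 8.5, 8.78, 8.89 and 8.85 in WT NR and 7.34, 7.67, 7.2 and 7.42 in Atm-/- NR (-1.35 ± 0.17, adjusted p = 0.00661). The groups did not overlap for either gene. The RIKEN transcripts 1700063D05Rik (-1.50 ± 0.23, adjusted p = 0.0260) and 9230112J17Rik (-0.97 ± 0.16, adjusted p = 0.0470) were also lower. For 9230112J17Rik the lowest WT NR array (7.76) lay above the highest Atm-/- NR array (7.29), the narrowest gap of these genes.

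**Figure D1:**
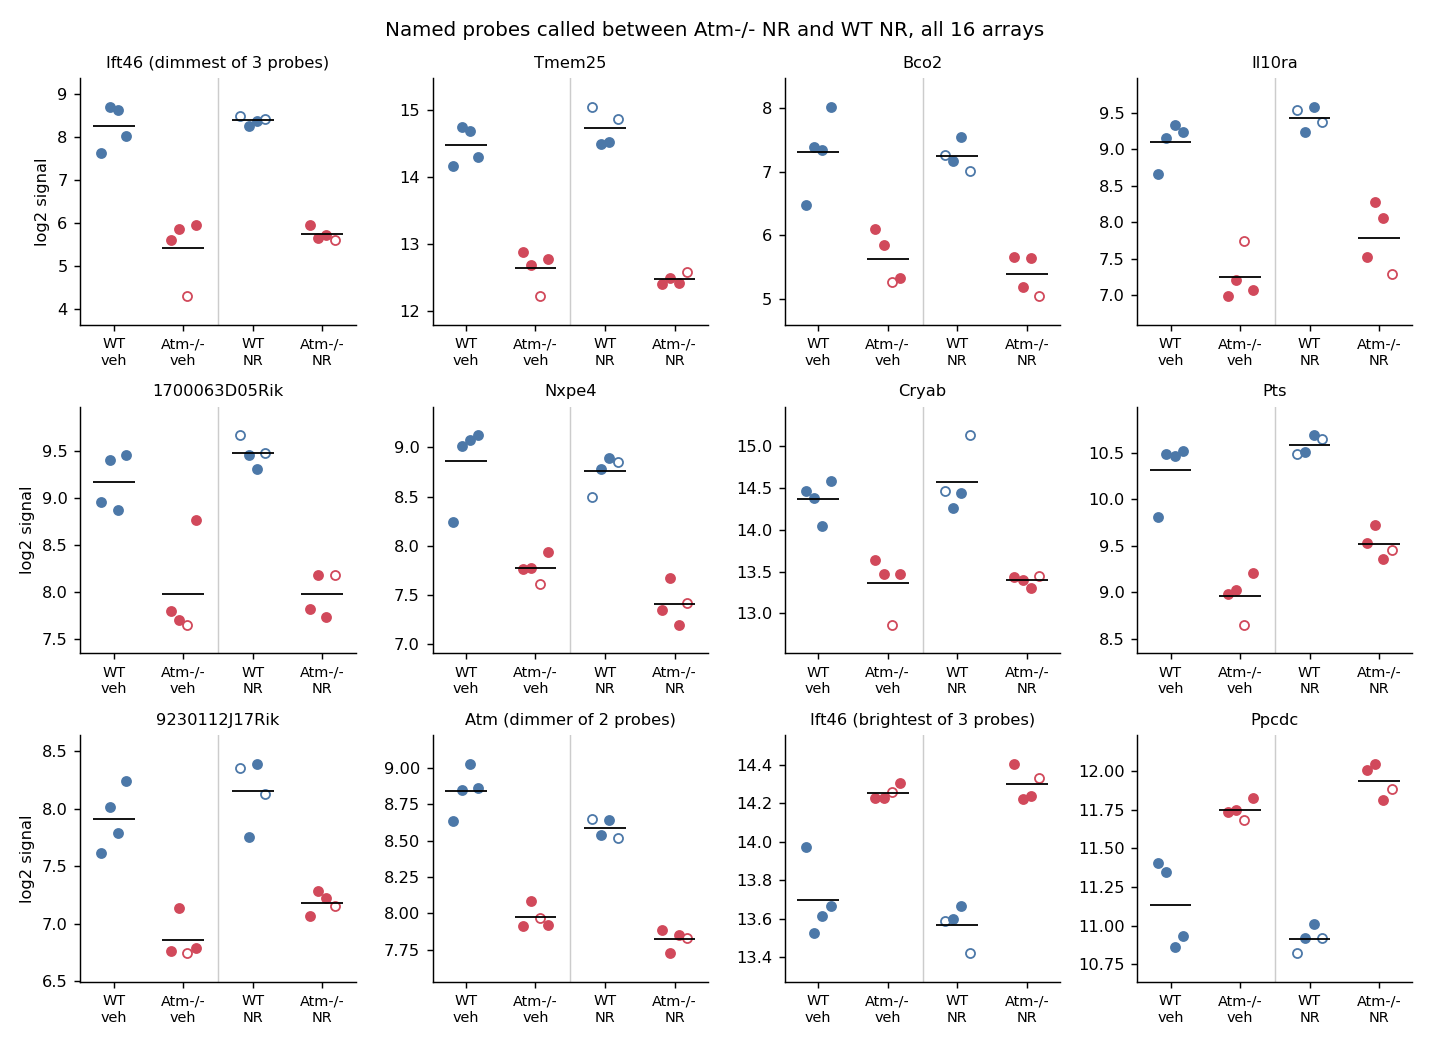
Log2 signal of the 12 named probes that were called between Atm-/- NR and WT NR, on each of the 16 arrays (points; n = 4 per group, blue WT, red Atm-/-; bars are group means; open points are arrays without Y-gene signal). In every panel the 4 red points under NR lie wholly on 1 side of the 4 blue ones, with 10 panels lower and 2 higher in Atm-/-, and the veh side of each panel shows the same direction.

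Of the 8 called probes without a gene name, 6 were lower and 2 higher in Atm-/- NR. Probe A_55_P2054967 gave 10.28, 9.42, 10.32 and 9.92 in WT NR and was well above background on 0 of the 4 Atm-/- NR arrays, so that it was at least 28.0-fold lower (adjusted p = 9.79e-06). Probe A_55_P2715091 gave 9.15, 9.52, 9.21 and 9.12 in WT NR, was likewise well above background on 0 of the 4 Atm-/- NR arrays, and was at least 17-fold lower. A bound of this kind sets the WT NR mean against the lowest signal that was well above background on each Atm-/- NR array. These were the largest differences of the comparison, and A_66_P140936 (at least 3.58-fold lower) had the same pattern of detection. The other 3 falls, A_55_P2732573 (-2.04), A_55_P2887373 (-1.85) and A_66_P114378 (-1.73), were between probes well above background in both groups. The 2 rises were A_55_P2714812 (1.62 ± 0.27, adjusted p = 0.0495) and A_55_P2146891 (0.66 ± 0.11, adjusted p = 0.0495), both dim. Both of them lost the call in most alternatives, A_55_P2714812 in 23 of 25 and A_55_P2146891 in 19 of 26.

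The direction of these differences was stable and the call less so. In all 26 alternatives, all of the 20 probes that were measured kept their direction and had an unadjusted p under 0.05. Tmem25 and the dimmest Ift46 probe stayed called throughout, and Atm (dimmer probe), Ppcdc, Nxpe4 and the brightest Ift46 probe lost the call only on the 12 arrays with Y-gene signal. Cryab lost it in 18 of 26 alternatives, 9230112J17Rik in 17, 1700063D05Rik in 10, Bco2 in 10 of 25, Pts in 7 and Il10ra in 4. On the arrays with Y-gene signal, which leave 2 WT NR and 3 Atm-/- NR arrays, 8 of the 20 probes stayed called. The median size of all 20 was then 1.5. Tmem25 was then at -2.07 (adjusted p = 0.00190), Ppcdc at 1.0 (adjusted p = 0.123) and Atm at -0.77 (adjusted p = 0.0964). With a term for Y-gene signal over all 16 arrays, 16 of the 20 stayed called, and the losses were 1700063D05Rik, Cryab, 9230112J17Rik and A_55_P2714812.

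Without NR, Atm-/- veh against WT veh also gave 20 called probes, or 0.0537% of those tested. Of the 20 probes called with NR, 13 were called without it (65% of each set), and all 20 lay in the same direction. The difference was the larger one with NR for 13 of the 20 probes and the smaller one for 7, with median sizes of 1.63 with NR and 1.37 without. Because the 20 probes were selected by their values with NR, these counts and sizes are a description. Only the values without NR are independent of the selection. Tmem25 was at -2.25 with NR and -1.84 without, Pts at -1.07 and -1.36, Nxpe4 at -1.35 and -1.09, and Atm (dimmer probe) at -0.76 and -0.87. The 7 probes called only with NR were those of Ppcdc, Ift46 (brightest probe), Bco2, 1700063D05Rik, Cryab, A_55_P2146891 and A_55_P2714812, and 6 of them had an unadjusted p under 0.05 without NR.

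Whether the genotype difference itself changed with NR was tested as an interaction in the same fit, in which 0 of 37253 probes (0%) were called by limma. The lowest adjusted p was 0.839, and at an unadjusted p under 0.05 there were 1962 probes, or 5.27%. Among the 20 probes called with NR, 3 had an unadjusted interaction p under 0.05. The 20 were selected by their values with NR, on which the interaction also rests, so that this count is a description. For Ppcdc the rise in Atm-/- was 0.41 ± 0.16 (SE) larger with NR than without (unadjusted p = 0.0229), for A_55_P2146891 it was 0.44 ± 0.15 larger (unadjusted p = 0.0116) and for A_55_P2714812 it was 0.87 ± 0.37 larger (unadjusted p = 0.0356). For Tmem25 the interaction was -0.42 ± 0.24 and for Pts 0.28 ± 0.22. None of these passed the adjustment, which does not show that the differences were equal. On the arrays with Y-gene signal the same test called 5 probes, all of them lower, among them Padi6 (-3.91) and Lypd4 (-4.02), picked after seeing their values.

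**Figure D2:**
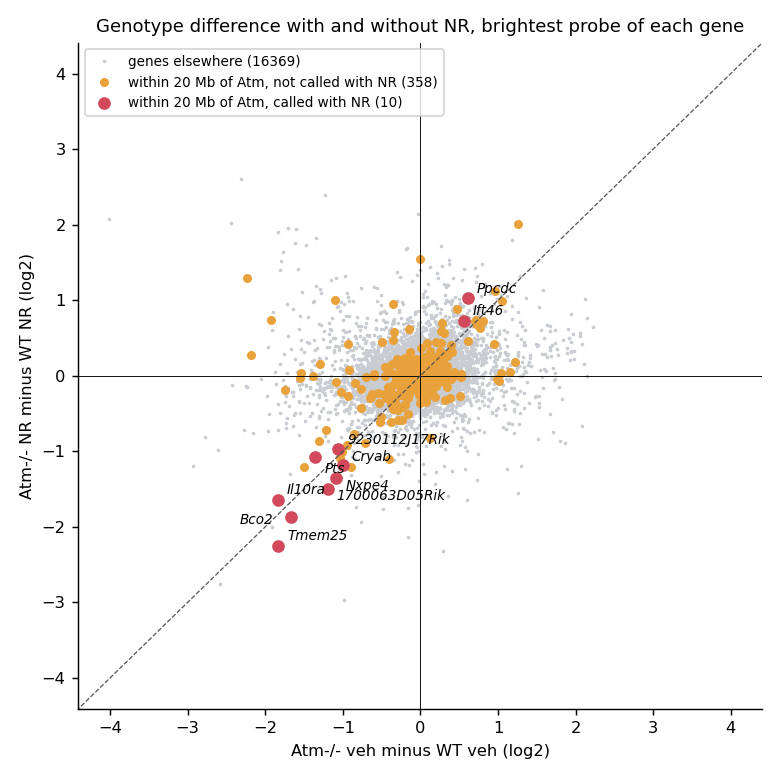
Genotype difference (log2, Atm-/- minus WT) with NR on the vertical axis against that without NR on the horizontal axis, 1 point for the brightest probe of each of 16737 genes; the dashed line marks equal differences. The 10 genes called with NR (red) lie near the dashed line, from Tmem25 at -2.25 to Ppcdc at 1.02, while the 16369 genes elsewhere (grey) form a cloud with little slope.

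A further 7 probes were called without NR and not with it. They are given because they bear on what was present under NR, and were chosen after their values were seen. Fxyd6, a regulator of the sodium pump, was at -1.21 with NR (adjusted p = 0.0517) and -1.50 without. Cd276, an immune checkpoint ligand, was at -0.92 (adjusted p = 0.0540) and -0.94, and Zc3h12c, a zinc finger protein, was at 0.64 (adjusted p = 0.0576) and 0.76. Nrg4, a ligand of the receptor ErbB4, was at -1.93 (adjusted p = 0.112) and -2.43 by a dimmer probe, while its brightest was at -1.02 in both comparisons and called in neither. These 4 missed the threshold with NR by a small margin or with a size close to that without NR, and their groups did not overlap under NR. Dnaja4, a co-chaperone, was at -0.43 with NR and -0.77 without. Mia2 was the only named gene called in either comparison that is not within 20 Mb of Atm, and by a probe that is not its brightest it was at 0.03 ± 0.08 with NR and 0.48 ± 0.08 without. Its NR groups overlapped (9.0 to 9.30 in WT NR, 9.16 to 9.28 in Atm-/- NR), and its interaction did not pass the adjustment (unadjusted p = 0.00105).

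Below the threshold, the comparison without NR held far more probes than that with NR. At an unadjusted p under 0.05 it had 5442 probes (14.6%), against 1941 with NR, and its groups did not overlap for 7.6% of the probes. The 5442 probes had a median difference of 0.36 in their own direction without NR and of 0.06 with NR, and 68.5% of them kept their direction, against 57.2% of all probes. The named ones within 20 Mb of Atm (131 probes) had a median of 0.44 without NR and 0.23 with it, and 110 kept their direction. The named ones elsewhere (3647 probes) had a median of 0.33 without NR and 0.05 with it, and 2437 kept their direction. Because these probes were selected by their values without NR, those values are a description, and only the values with NR are independent of the selection.

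The called genes lay close to Atm on chromosome 9. With each gene taken by its brightest probe, 10 of 16737 genes were called (0.0597%), and 727 had an unadjusted p under 0.05 (4.34%). Within 5 Mb of Atm, 4 of 113 genes were called and 24 (21.2%) had an unadjusted p under 0.05, and from 5 to 10 Mb these were 5 of 98 and 30 (30.6%). From 10 to 20 Mb they were 1 of 157 and 9 (5.73%). On the rest of chromosome 9, 0 of 575 genes were called and 21 (3.65%) had an unadjusted p under 0.05, close to the 4.07% of the other chromosomes, where 0 of 15794 were called. The called genes lay on both sides of Atm, 8 on the side of lower coordinates, where Ift46 and Tmem25 are 8.7 Mb away, and 2 on the other, Ppcdc at 3.9 Mb and 9230112J17Rik at 7.0 Mb. Of the 63 genes within 20 Mb at an unadjusted p under 0.05, 28 were higher and 35 lower in Atm-/- NR, and 56 (88.9%) had the same direction without NR. Of the 664 genes elsewhere at that threshold, 508 (76.5%) had the same direction without NR. Across the 211 genes within 10 Mb the differences with and without NR had a Pearson correlation of 0.568, as a description over genes, which are not independent and share the slides, and over the 16369 genes beyond 20 Mb it was 0.144. By the looser rule of the study's supplementary methods, which combines thresholds of size, p and false discovery rate on z-scores, 566 probes differed, and of the named ones 46 lay within 20 Mb of Atm and 224 elsewhere.

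The count of called genes near Atm moved with single arrays. It was 10 with all arrays and 4 without WT NR 1 or without WT NR 3, 5 without Atm-/- NR 4, and 6 without Atm-/- NR 1, 2 or 3. On the arrays with Y-gene signal, Tmem25 was the only gene near Atm called by its brightest probe, while Ift46 was called by its dimmest (-2.58, adjusted p = 0.0120), and 7 genes elsewhere were called, among them Lypd4 (-4.02) and Padi6 (-3.55), chosen after their values were seen. Neither of these was called with all arrays.

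**Figure D3:**
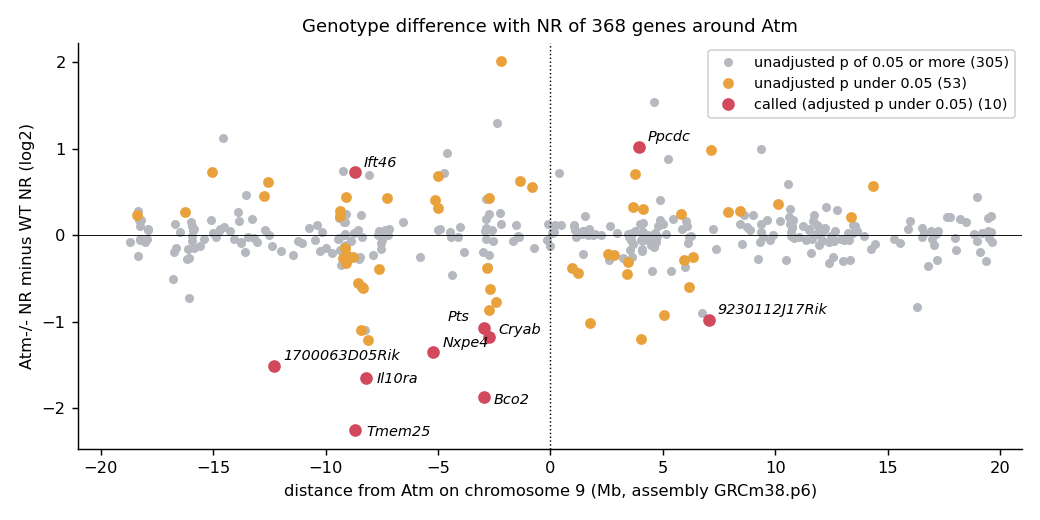
Difference between Atm-/- NR and WT NR (log2) of the brightest probe of 368 genes against distance from Atm on chromosome 9 (Mb, assembly GRCm38.p6). The 10 called genes (red) range from -2.25 (Tmem25) to 1.02 (Ppcdc), and 54 of the 63 genes with an unadjusted p under 0.05 (red and orange) lie within 10 Mb.

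Genes of the pathways that the study of these mice was concerned with were counted in 8 lists, and markers of the cells of the cerebellum and of its surroundings in 13. Of the 459 genes measured in these 21 lists, 0 were called by their brightest probe (limma) and 17 had an unadjusted p under 0.05, against 4.34% of all genes. Over all genes, 8832 of 16737 were higher in Atm-/- NR and the median difference was 0.0078. The DNA damage response and p53 targets, the genes closest to the kinase itself, had 17 of 35 higher and a median of -0.0017, and the gene with the lowest p was Prkdc, the catalytic subunit of another kinase of break repair (-0.24 ± 0.07, adjusted p = 0.701). The NAD synthesis and use list, which holds the enzymes that handle NR and its products, had 18 of 29 higher with a median of 0.06. Qprt, which makes NAD+ from tryptophan breakdown, was at 0.44 ± 0.17 (adjusted p = 0.886), and Tnks, a poly(ADP-ribose) polymerase, at -0.25 ± 0.11.

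Lists of innate immune genes had most members lower. In the cGAS-STING and interferon response 19 of 29 were lower with a median of -0.07, led by Adar, an RNA-editing enzyme that limits sensing of double-stranded RNA (-0.25 ± 0.09, adjusted p = 0.862), while Oas2 was at 0.22 ± 0.20. Among NF-kB, inflammasome and senescence secretory genes 24 of 34 were lower with a median of -0.07. The chemokine Ccl4 gave 5.39, 4.21, 6.43 and 5.96 in WT NR, well above background on 3 of the 4 arrays, and on 0 of the 4 Atm-/- NR arrays, where it was at least 1.31-fold lower (adjusted p = 0.696). The chemokine Ccl3 gave 5.19, 5.36, 7.04 and 5.72 in WT NR and 5.04, 4.54, 4.70 and 4.56 in Atm-/- NR (-1.11 ± 0.39, adjusted p = 0.853). WT NR 3 was the highest array for both chemokines, the Ccl3 groups did not overlap, and neither gene was called.

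Lists of mitochondria and synapses had medians near 0. The respiratory chain and ATP synthase list had 57 of 74 genes higher with a median of 0.03 and a range of -0.07 to 0.16, and Ndufa8, a subunit of complex I, was at 0.16 ± 0.08. The mitophagy, autophagy and mitochondrial upkeep list had 26 of 43 higher with a median of 0.01, with Atg7 at -0.13 ± 0.07 and Tfam at 0.15 ± 0.10. Both lists had 0 genes with an unadjusted p under 0.05. Synaptic vesicle release and postsynaptic receptors had 33 of 49 lower with a median of -0.05, its range was -0.74 to 0.18, and the vesicle fusion protein Snap25 was at -0.23 ± 0.14. Ataxia and Purkinje calcium signalling genes had 20 of 34 lower with a median of -0.02, and Atxn7, the gene of spinocerebellar ataxia with retinal degeneration, was at 0.30 ± 0.12 (adjusted p = 0.923).

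**Figure D4:**
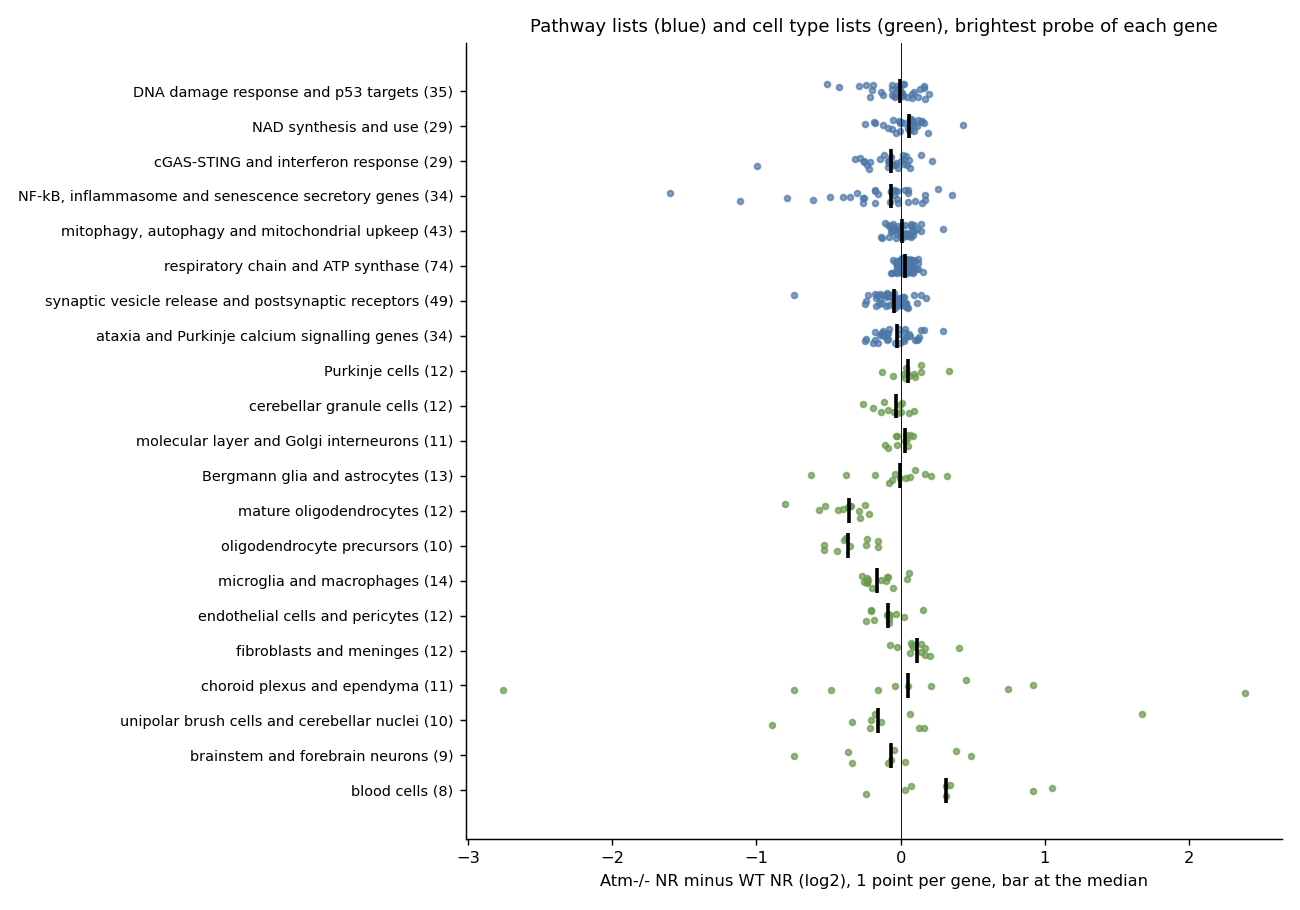
Difference between Atm-/- NR and WT NR (log2, horizontal axis) of each measured gene of 8 pathway lists (blue) and 13 cell type lists (green), with a bar at the median and the number of genes in parentheses. No point was called, and the lists of mature oligodendrocytes and their precursors lie wholly below 0, at -0.36 and -0.37.

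Among cell type lists, those of the oligodendrocyte lineage, the cells that make myelin, stood lowest. All 12 markers of mature oligodendrocytes were lower in Atm-/- NR with a median of -0.36, and all 10 of oligodendrocyte precursors with a median of -0.37. None was called, and 4 and 2 of them had an unadjusted p under 0.05. Mobp, a structural protein of myelin, gave 14.13, 13.91, 13.94 and 14.81 in WT NR and 13.42, 13.50, 13.20 and 13.47 in Atm-/- NR (-0.80 ± 0.33, adjusted p = 0.901). Cldn11, which seals myelin layers, gave 13.68, 13.85, 13.76 and 14.46 in WT NR and 13.46, 13.51, 13.27 and 13.42 in Atm-/- NR (-0.52 ± 0.21, adjusted p = 0.897). Sox10, a transcription factor of the lineage, was at -0.53 ± 0.19 (adjusted p = 0.860). The groups of Mobp, Cldn11 and Sox10 did not overlap, and WT NR 4 was the highest array for each. Cspg4, a surface proteoglycan of precursors (-0.44 ± 0.16, adjusted p = 0.853), lies 3.4 Mb from Atm and is thus also a gene of the neighbourhood described above.

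For every array, the value used was the mean log2 signal of the listed genes, less their mean over the NR arrays of both genotypes. For the mature list this value was -0.02, 0.09, 0.12 and 0.62 in WT NR and -0.21, -0.13, -0.39 and -0.08 in Atm-/- NR. That of the precursor list was -0.02, 0.05, 0.16 and 0.49 in WT NR and -0.24, -0.05, -0.14 and -0.24 in Atm-/- NR. For both lists the NR groups did not overlap, with a narrow gap between WT NR 1 and the highest Atm-/- NR array. The NR groups also did not overlap for NAD synthesis and use, with WT NR at most at 0.0046 and Atm-/- NR at least at 0.0087. Nor did they for NF-kB, inflammasome and senescence secretory genes, with WT NR at least at -0.045 and Atm-/- NR at most at -0.049. They overlapped for the remaining lists. On the arrays with Y-gene signal the NAD synthesis and use list had 14 of 29 genes higher and a median of -0.0013. The NF-kB, inflammasome and senescence secretory list then had 18 of 34 lower and a median of -0.0034. Without WT NR 4 the medians of the mature and precursor lists were -0.24 and -0.21, with all members still lower, and on the arrays with Y-gene signal they were -0.38 and -0.29. The Atm-/- veh arrays (-0.29 to -0.13 for the mature list) lay within the spread of the WT veh arrays (-0.57 to 0.18), and the median of the mature list without NR was -0.05. That of the precursor list without NR was -0.22, and 2 of its genes had an unadjusted p under 0.05. In RNA from whole tissue, fewer cells of a type and less RNA per cell cannot be told apart.

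Markers of the neurons that degenerate in ataxia telangiectasia lay close to 0. Purkinje cell markers were higher for 10 of 12 with a median of 0.05 (Ppp1r17, 0.34 ± 0.20), granule cell markers lower for 8 of 12 with a median of -0.03 (Fat2, -0.26 ± 0.14), and molecular layer and Golgi interneuron markers higher for 6 of 11 with a median of 0.03 (Gad2, -0.09 ± 0.08). Unipolar brush cells and cerebellar nuclei had 6 of 10 lower with a median of -0.16. None of these genes had an unadjusted p under 0.05. Bergmann glia and astrocytes had 7 of 13 lower with a median of -0.01, although Sox9, a transcription factor of these cells, was at -0.62 ± 0.22 and the glutamate transporter Slc1a2 at -0.38 ± 0.17 (adjusted p = 0.853 and 0.933). Microglia and macrophages had 12 of 14 lower with a median of -0.16 and 0 genes with an unadjusted p under 0.05, and Csf1r, their growth factor receptor, was at -0.26 ± 0.21. Endothelial cells and pericytes had 10 of 12 lower with a median of -0.09.

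Markers of tissue around the cerebellum varied between arrays of the same group. Ttr, the carrier protein secreted by the choroid plexus, gave 10.34, 12.62, 12.45 and 11.96 in WT NR and 9.69, 9.54, 7.13 and 9.97 in Atm-/- NR. The difference was -2.76 with a standard error of 1.61, and Ttr was not called although its groups did not overlap. The choroid plexus and ependyma list as a whole had a median of 0.05 and a range of -2.76 to 2.39. Fibroblasts and meninges had 10 of 12 higher with a median of 0.11, brainstem and forebrain neurons 6 of 9 lower with a median of -0.07, and blood cells 7 of 8 higher with a median of 0.31. The blood value was highest on WT NR 3 (0.51), Atm-/- NR 2 (0.75) and Atm-/- NR 4 (0.45), in both genotypes. The part of these tissues in the differences of other genes was not tested.

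The study's text named 11 genes for its arrays, chosen on these samples for comparisons other than that under NR, 8 for Atm-/- veh against WT veh and 3 for WT NR against WT veh. By their brightest probes, 0 of the 11 were called between Atm-/- NR and WT NR. Lrrc49 came closest, with 11.96, 12.12, 11.85 and 11.65 in WT NR and 12.95, 12.88, 12.78 and 12.90 in Atm-/- NR (0.98 ± 0.20, adjusted p = 0.165). Its groups did not overlap, its difference without NR was 1.05, and it lies 7.2 Mb from Atm. Lrrc49 was called in 2 of 26 alternatives, in a fit to the 8 NR arrays (adjusted p = 0.0291) and without WT veh 4 (adjusted p = 0.0428). Pstpip2, an adaptor of the actin cytoskeleton in macrophages, was at -0.76 ± 0.26 with NR and -0.02 without, and no interaction was called for it. Hmmr, a protein of the mitotic spindle, was at 0.25 ± 0.30 with NR and 0.96 without. Pign, an enzyme of glycolipid anchors, was at -0.22 ± 0.28 with NR and 0.88 without by its brightest probe. Its dimmer probes were at -0.07 and -0.27 with NR and at -0.23 and -0.87 without, so its probes did not share a direction without NR. The other 7 genes ranged from 0.01 (Cd209d) to 0.50 (Spaca6), and the median of all 11 was 0.24 with NR and 0.68 without. Dzip1, at 0.04 by the brightest of its 4 probes, was at 0.84 ± 0.28 by the next (adjusted p = 0.830; 0.73 without NR), and at -0.05 and -0.14 by the other two.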

How the data were processed

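Cerebellar RNA of 16 mice was hybridised to 16 Agilent arrays of 1 colour, 4 for each group of the labels. Scans had been read with Agilent Feature Extraction 12.0.3.1, and the deposited files give each of 62976 spots an intensity after background subtraction. The authors also deposited z-scores of each array, used as a score in an alternative. The number of arrays limits the precision. Control spots were left out, the log2 signal was quantile normalized and spots of a probe were averaged. A probe was kept if every array of some group had it well above background. Names came from accessions through RefSeq, so that 32994 of 56605 probes carry a gene on GRCm38.p6. The array design rests on mm9, so no gene coordinates are given apart from those of promoters. A gene was taken by its brightest kept probe. Tests used limma 3.58.1 (R 4.3.3, with version 1.17.8 of data.table) on 4 group means over 16 arrays, which left 12 residual degrees of freedom. A difference was called if its p, adjusted by Benjamini-Hochberg, was under 0.05. Single genes were named by rule: Atm, the 12 largest called rises and falls, the study's genes, and up to 4 called genes of each list or else the 2 of lowest p. Genes outside it are marked as chosen after their values were seen, apart from Xist, the genes of the Y chromosome, Pcp2, Cbln1, Sp140 and Vmn2r112. The members and lists were chosen with earlier results of these data known. Alternatives were other scalings, background correction, filters and variance models, the deposited z-scores, subsets of arrays, a replicate block, the methods' t-test and rule, and each array left out. Replicate numbers did not pair the arrays: deviations of same-numbered arrays correlated at 0.05 to 0.20, over 0.1 for 2 of 4.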

Additional observations from a re-analysis of the deposited data

Results flagged for a closer look

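Of 110 groups of 4 arrays examined among the values reported, 4 held an array set far from the other 3, where chance alone gives about 5.5. On WT NR 1 the list of unipolar brush cells and cerebellar nuclei had a value of -0.57, against 0.14 to 0.23 on the other WT NR arrays. On WT NR 3 the list of blood cells had a value of 0.51, against -0.45 to -0.36. On Atm-/- NR 3 the list of brainstem and forebrain neurons had a value of -0.28, against 0.02 to 0.07. Probe A_55_P2146891, called as higher in Atm-/- NR, had a log2 signal of 6.58 on Atm-/- NR 4, against 6.4 to 6.43 on the other Atm-/- NR arrays.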

How the results depend on the processing

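The 20 called probes kept their direction under all alternatives in which they were measured. Between Atm-/- NR and WT NR, 10 probes were called by the methods' t-test after Benjamini-Hochberg adjustment, 2392 by the same test at the methods' unadjusted threshold and 566 by the rule of the supplementary methods, which included all 20 and named probes near Atm (46) and elsewhere (224). Leaving out single arrays gave 12 (without WT NR 3) to 24 called probes, 4 to 13 called genes within 20 Mb of Atm, 13 to 47 called probes without NR (47 without Atm-/- veh 2) and 0 to 2 called interactions. On the arrays with Y-gene signal there were 29 called probes with NR, 11 without NR, 5 interactions and 1 called gene near Atm. With only the 8 veh arrays in the fit, 7 probes were called without NR. No list gene was called under any alternative. With the replicate block, 19 probes were called with NR, 15 without and 0 as an interaction, with 9 genes near Atm, and 16 of the 20 remained. Genes called outside 20 Mb numbered 0 to 3 apart from 7 on the arrays with Y-gene signal, and were led by Sp140, called in 5 alternatives (-0.68 under normexp), and Vmn2r112, called in 3 (-1.43 at the 75th percentile). Some uncalled genes changed sign: on the arrays with Y-gene signal the brighter Atm probe (0.00015), Dzip1 (-0.18), Cd3e (0.060) and S100a9 (-0.15), at the 75th percentile Cd209d (-0.0082), and without single arrays Cd209d (-0.21 to 0.21) and Dzip1 (-0.044 to 0.13). The causes were not tested.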

Other observations

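Genes near Atm that were measured by several probes did not always give 1 direction. Ift46 had its 2 brighter probes higher in Atm-/- NR (0.73 and 0.76) and its dimmest probe lower (-2.66), and the same split was present without NR (0.56, 0.75 and -2.83). Ift46 and Tmem25 lie next to each other with 1.06 kb and 0 other genes between them on GRCm38.p6, and Pts and Bco2 with 4.37 kb and 0 other genes between them, whereas the other called genes are separated by 9 to 98 genes.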
